A study of Mus musculus with 29 samples.

Results

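The mitochondrial ribosomal protein genes are the nuclear genes named Mrpl or Mrps followed by a number. Members were taken from the deposited mRNA counts by that name and a mean level of at least 1 CPM (read counts scaled to a common library size). Of 23420 genes listed, 76 carried such a name and all 76 passed, 47 Mrpl genes and 29 Mrps genes. The names stand for the large and the small subunit, but the place of each protein in the ribosome was not checked. The members nearest to the threshold were Mrpl1 at 6.51 CPM, Mrpl47 at 7.80 and Mrps6 at 9.54, so the threshold removed none.

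RNA came from the ventricular apex of C57BL/6J mice labelled 12 weeks old, while the label for tissue says whole heart. The 4 genotypes were wild type, postnatal cardiac ablation of protein kinase C δ (PKCδ), germline knockout of PKCε, and the combined knockout, and the labels name no Cre line or promoter for the cardiac ablation. Each genotype was sampled unstressed (4, 3, 3 and 4 libraries in that order) and 4 weeks after transverse aortic constriction (TAC), an operation that narrows the aorta and loads the left ventricle with pressure (4, 3, 4 and 4 libraries). The 14 unstressed libraries came from hearts labelled male, and the TAC groups held 1, 2, 0 and 3 hearts labelled female in that order. The labels do not say that each library is a separate animal, so p-values measure the spread between libraries, which may be technical in part.

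Mitochondria make a small set of proteins themselves, all of them subunits of the respiratory chain and ATP synthase, on a ribosome of their own. Its RNA is encoded in mitochondrial DNA, while its proteins are encoded in the nucleus, translated in the cytosol and imported. Many of these proteins have a counterpart in the bacterial ribosome, and others were added in the mitochondrial lineage and lie mostly on the outside of the particle. Heart muscle is among the tissues most dependent on respiration, and inherited defects of several members, Mrpl3, Mrpl44 and Mrps22 among them, cause cardiomyopathy in people.

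Libraries held 10523709 to 17314739 counts, and the lowest member count in a library ranged from 59 to 130. The ribosomal RNA precursor Rn45s made up 4.51% to 8.59% of the counts after TAC and 9.90% to 14.1% before it, and reads aligned to more than 1 place were 11.0% to 14.2% after TAC and 8.01% to 9.57% before. Neither measure overlapped between the conditions, and their part in the TAC results was not tested. Prkce, the gene of PKCε, stood at 46.8 to 52.9 CPM in unstressed wild type and at 6.59 to 9.18 in the unstressed groups labelled with its loss. At 31.5 CPM of Prkce, replicate 2 of the libraries labelled combined TAC did not match its label, and wild-type TAC replicate 2 was the lowest of its group at 24.0, so counts of called genes are also given without both. Prkcd was not lower in the unstressed PKCδ group (16.3 to 18.7 CPM) than in wild type (13.4 to 15.8), and a count over the whole gene does not show the loss of an exon or of expression in one cell type, so that label was not checked by these values. The summed level of 4 Y-linked genes was under 1 CPM in 10 of the 23 libraries labelled male and at or above it in 4 of the 6 labelled female, so the sex term of the model rests on labels that the transcripts go against.

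Cardiomyocyte markers (12 of 12 detected) summed to 116748 to 144418 CPM over all libraries. After TAC 4, 3, 3 and 3 of them were called higher and 6, 4, 6 and 5 lower in wild type, PKCδ, PKCε and combined. The fibroblast markers (9 of 9 detected) summed to 820 to 1292 CPM in the unstressed libraries and to 1628 to 3959 after TAC, with no overlap. In the same order of genotypes 4, 4, 4 and 8 of them were called higher and 1, 1, 1 and 0 lower. The atrial myocyte markers, which include Nppa, summed to 54.6 to 153.9 CPM unstressed and to 488 to 6920 after TAC, also with no overlap, and 3, 2, 1 and 1 of 4 tested were called higher in wild type, PKCδ, PKCε and combined. Among them Bmp10 was at 0 in the unstressed ablations and in PKCε TAC, and Sln at 0 in unstressed PKCε. Of the 8 macrophage markers, 7 were called higher after TAC in wild type, 3 each in PKCδ and PKCε, and 0 in the combined knockout, where 2 were called lower. The part of these shifts in the results below was not tested, and in whole tissue fewer cells of a type and less RNA per cell cannot be told apart.

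Per kilobase of transcript, the members spanned 1.90 to 241 CPM per kb with a median of 26.5. Mrpl42 was the most abundant at 241 CPM per kb, followed by Mrps21 at 177, Mrpl30 at 167 and Mrpl12, the counterpart of the bacterial L7/L12 stalk protein, at 132. Mrpl1 (1.90), Mrpl47 (2.32), Mrps30 (4.24) and Mrpl32 (4.38) were the lowest. These levels divide by the shortest principal transcript of each gene, so a gene with a longer used form is placed too high. The members lay on 17 chromosomes.

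The summed level of the family moved little under the main scaling. With library sizes scaled by TMM, a method that centres the fold changes of most genes, it was 3107 ± 49.3 CPM (SD, n = 4) in unstressed wild type and 3295 ± 197 (n = 4) after TAC. In the PKCδ group it went from 3122 ± 39.1 (n = 3) to 3323 ± 61.8 (n = 3), and in the PKCε group from 3196 ± 21.5 (n = 3) to 3358 ± 185 (n = 4). The combined knockout went from 3118 ± 43.9 (n = 4) to 3194 ± 107 (n = 4), and its lowest TAC library, at 3073, lay within its unstressed range of 3062 to 3157. The lowest wild-type TAC library, at 3119, also lay within its unstressed range of 3057 to 3150, while the PKCδ and PKCε ranges did not overlap. Scaled by total counts alone, the wild-type sum was 2893 to 3068 CPM unstressed and 3338 to 3631 after TAC, with no overlap. The combined ranges still overlapped under that scaling (2923 to 3071 and 2972 to 3418). Single members moved much more than this sum, in both directions.

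In wild-type hearts TAC raised 25 of the 76 members and lowered 6 (edgeR quasi-likelihood test, adjusted p below 0.05). Over all 13765 genes tested 17.8% were called higher and 18.0% lower, so the members were called higher more often, and lower less often, than the background share. Their median log2 fold change was 0.07, against 0.00 over all genes. Without both doubted libraries the counts were 21 and 7, beside 31.6% of all genes called in either direction. The largest rises were those of Mrps14, Mrpl33, Mrpl52 and Mrps23 (0.71, 0.67, 0.63 and 0.57 on the log2 scale), and the largest falls those of Mrpl50, Mrpl39 and Mrpl42 (−0.66, −0.52 and −0.48).

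The PKCδ group had 23 members higher and 8 lower after TAC (background 11.7% and 11.9%), with a median of 0.09 against −0.02 over all genes. The PKCε group had 18 higher and 5 lower (background 14.5% and 14.3%), with a median of 0.04. In the combined knockout 17 were higher and 9 lower (background 16.3% and 15.8%), with a median of 0.08. Without both doubted libraries these counts were 16 and 10, beside 33.4% of all genes called in either direction. When libraries were scaled by their total counts instead, the median of all genes shifted up by 0.12, 0.04, 0.11 and 0.09 in wild type, PKCδ, PKCε and combined. The split of members was then 34 higher and 4 lower in wild type and 23 and 5 in PKCδ. It was 28 and 2 in PKCε and 24 and 3 in the combined knockout. In the same order 37.7%, 22.1%, 30.1% and 32.4% of all genes were called in either direction. The members' median stood above that of all genes by 0.07, 0.12, 0.04 and 0.08 in that order under that scaling. With no sex term the combined knockout had 22 higher and 12 lower, beside 43.8% of all genes called in either direction. In a fit of the 8 combined libraries alone the sex term takes up each TAC library labelled female. Only TAC replicate 3 then carries the comparison, as it does among libraries labelled male, so counts from those fits are not given.

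**Figure D1:**
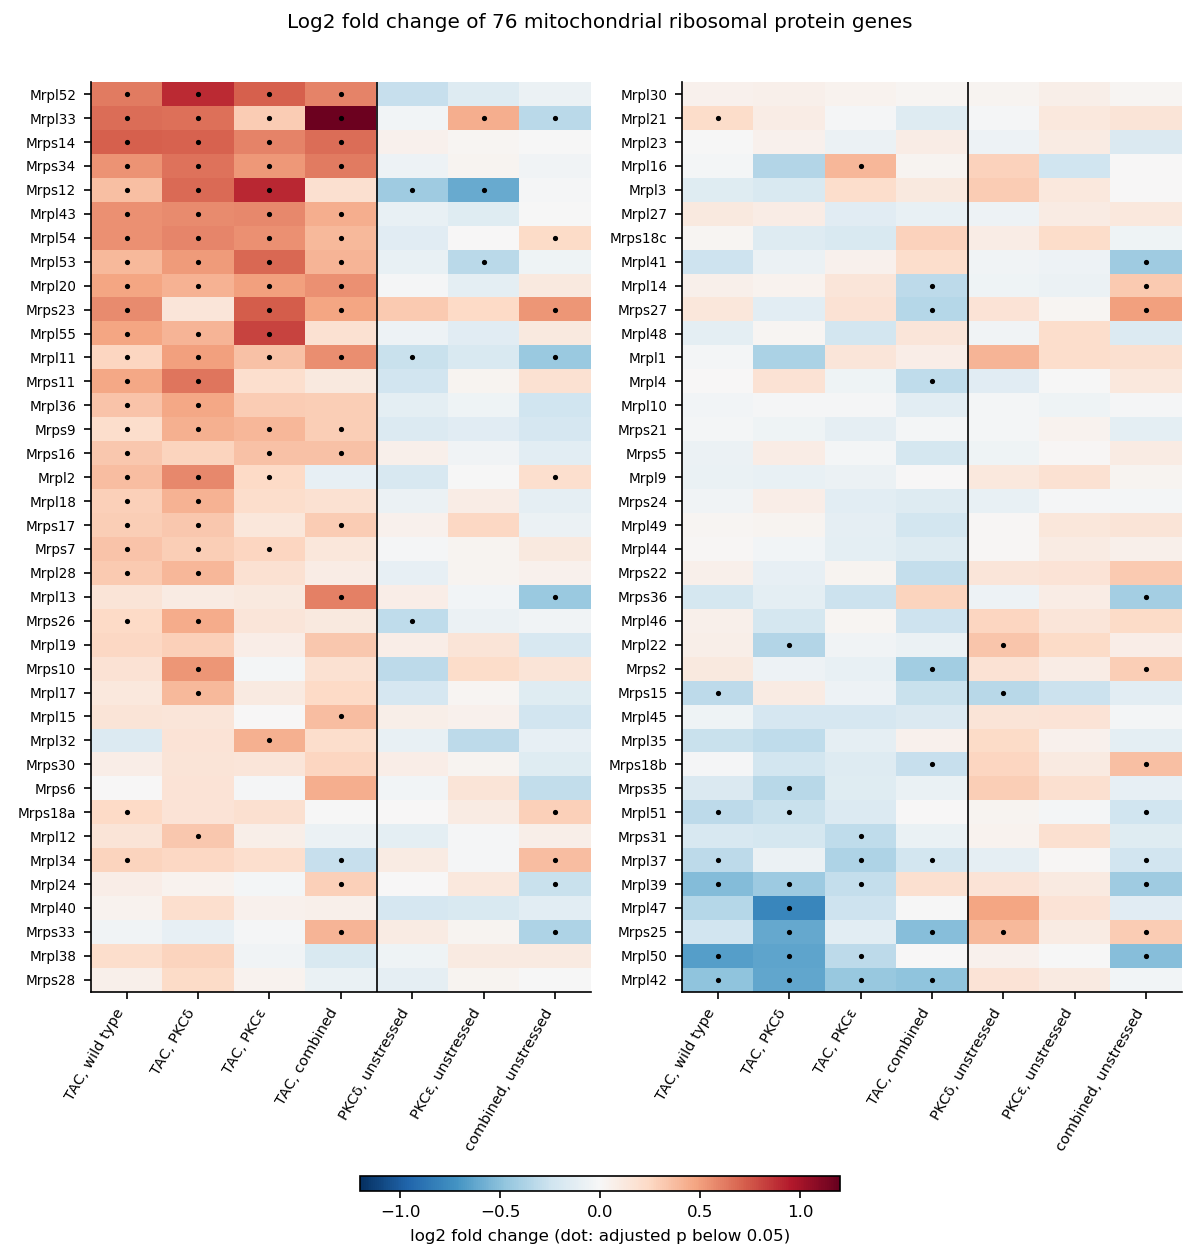
Log2 fold change of the 76 members (rows, ordered by their mean TAC effect over the genotypes) in the 4 TAC comparisons and in the 3 genotype comparisons of unstressed hearts (columns). Red is higher and blue lower, and a dot marks an adjusted p below 0.05. Genes run from the top of the left panel to the foot of the right one, from Mrpl52 to Mrpl42, which both carry dots in the 4 TAC columns. Right of the line in each panel, dots are few for PKCδ (6) and PKCε (3) and more numerous for the combined knockout (21).

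Of the 76 members, 10 were called higher after TAC in each of the 4 genotypes, 13.2% of the family against 4.24% of all genes tested. They were Mrpl11, Mrpl20, Mrpl33, Mrpl43, Mrpl52, Mrpl53, Mrpl54, Mrps9, Mrps14 and Mrps34. Taken with Mrpl2, Mrpl55, Mrps7, Mrps12, Mrps16, Mrps17 and Mrps23, 17 were called higher in at least 3 genotypes (22.4% against 9.66%). The 4 TAC comparisons use different libraries but share the fitted sex term. Without both doubted libraries 9 of the 10 remained, Mrps9 being the exception. Leaving out single libraries in turn ended some of the 40 calls. Mrpl11 in wild type was lost without TAC replicate 2 (0.19), and Mrps9 in wild type without unstressed replicate 2 (0.18) or 4 (0.20) or TAC replicate 1 (0.22) or 2 (0.10). Mrps9 in the combined knockout was lost without wild-type TAC replicate 4 (0.26), Mrpl33 in the PKCε group without unstressed replicate 1 (0.28), and Mrps14 in the PKCδ group without TAC replicate 1 (0.58). Mrpl20 in the PKCδ group was lost without unstressed replicate 1 or 3, TAC replicate 1 or 2, or wild-type TAC replicate 4 (0.30 to 0.41). Fitted to the compared groups alone, only Mrps9 in wild type was lost among the wild-type and PKCε calls of the 10. In PKCδ and combined that fit rests on TAC replicate 1 and TAC replicate 3, the only TAC libraries labelled male there. Its calls in those genotypes are therefore not given.

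Mrpl33, the counterpart of bacterial L33 in the large subunit, had the largest TAC rise of any member within the combined knockout. In unstressed wild type it stood at 37.1, 34.1, 35.8 and 38.8 CPM and after TAC at 55.8, 67.6, 56.9 and 48.9. In the combined knockout it stood at 25.8, 32.1, 26.6 and 31.8 CPM unstressed and at 63.8, 61.0, 63.2 and 64.5 after TAC. Each TAC library lay above each unstressed library in both genotypes, as for 17.6% of all genes in wild type and 16.0% in the combined knockout. The log2 fold change was 0.67 ± 0.08 (SE, adjusted p = 1.11e-06) in wild type and 1.18 ± 0.10 (adjusted p = 2.37e-09) in the combined knockout. In the PKCδ group it went from 32.7, 37.9 and 36.6 CPM to 53.0, 58.6 and 51.6. In the PKCε group the unstressed level was already 47.3, 52.3 and 48.1 CPM, and TAC brought it to 63.5, 56.96, 58.9 and 64.4, a log2 rise of 0.31 ± 0.09. After TAC the range of each ablation overlapped that of wild type, while before it the combined knockout was lowest and the PKCε group highest.

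Mrpl43, Mrpl52 and Mrps14 were each called higher in the 4 genotypes. Mrpl43, a protein of the large subunit with no bacterial counterpart, went from 38.4, 37.0, 31.6 and 36.4 CPM in wild type to 50.4, 57.03, 50.6 and 50.7, with log2 fold changes of 0.55, 0.57, 0.58 and 0.44 in wild type, PKCδ, PKCε and combined. Of its exon bases 33.4% overlap Twnk on the other strand, which the files list as Peo1 and which was called lower in wild type, PKCε and combined (−0.23, −0.34 and −0.34). Mrpl52 went from 17.6, 16.1, 17.4 and 14.0 CPM to 24.0, 22.1, 27.1 and 25.5 in wild type, and its rise was largest in the PKCδ group (0.90 ± 0.13 against 0.63 ± 0.10), a difference that was not called. Mrps14, the counterpart of bacterial S14 in the head of the small subunit, went from 17.4, 17.05, 18.6 and 18.6 CPM to 24.8, 40.0, 24.5 and 26.2. Its wild-type TAC replicate 2 stands far above the rest, and the call remained without it.

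Overlapping genes limit several members, since the libraries carry no strand. At least 20% of exon bases overlapped another gene in 10 members, among them Mrpl53 (88.0%, the predicted gene Gm42688 on the same strand), Mrps25 (69.8%, Nr2c2 on the other strand) and Mrps34 (63.4%, Mapk8ip3 on the other strand, and 37.0%, Nme3 on the same strand). The rises of Mrps34 (0.54, 0.65, 0.52 and 0.63 in the order above) and Mrpl53 (0.39, 0.51, 0.69 and 0.40) are therefore uncertain as to gene, as are all results for Mrps25. The others were Mrpl43, Mrpl19, Mrps18b, Mrpl24, Mrps27, Mrpl47 and Mrps18c, with 23.2% to 36.0%.

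Mrpl42, a large-subunit protein without a bacterial counterpart, was the 1 member called lower after TAC in each genotype (1.32% of members against 3.62% of all genes). It fell from 184, 156, 188 and 199 CPM in unstressed wild type to 126, 151, 118 and 125 after TAC. The log2 fold change was −0.48 ± 0.11 in wild type, −0.62 ± 0.15 in PKCδ, −0.46 ± 0.12 in PKCε and −0.48 ± 0.14 in the combined knockout. TAC and unstressed libraries did not overlap in any of the 4 genotypes. Of all genes, 17.6%, 25.4%, 17.5% and 17.1% were lower without overlap in wild type, PKCδ, PKCε and combined. The combined call was lost without TAC replicate 3 (−0.36). The fit of the combined libraries alone rests on TAC replicate 3, the only one of its TAC libraries labelled male, so its outcome is not read.

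Mrpl39, Mrpl50 and Mrpl37, large-subunit proteins added in the mitochondrial lineage, were each called lower in 3 genotypes, and 4 of 76 members in all were lower in at least 3 (5.26% against 8.88%). Mrpl50 went from 30.4, 29.7, 29.2 and 32.5 CPM to 18.9, 18.8, 20.1 and 21.3 in wild type. In the combined knockout it was 21.6, 23.2, 19.7 and 21.2 CPM unstressed and 24.3, 30.7, 19.1 and 19.6 after TAC, where the groups overlap. Mrpl39 went from 26.1, 26.5, 25.8 and 28.7 CPM to 19.2, 15.1, 20.9 and 18.4 in wild type, and from 19.0, 20.7, 20.8 and 19.3 to 21.5, 23.8, 23.2 and 19.0 in the combined knockout. In the PKCε group the calls of both were lost without unstressed replicate 1 or 2 or TAC replicate 1 or 2, and that of Mrpl50 also without TAC replicate 3 or combined unstressed replicate 4. Mrpl37, lower in wild type, PKCε and combined (−0.32, −0.37 and −0.22), lost its combined call, at an adjusted p of 0.0462, when most single libraries were left out (−0.26 to −0.17).

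**Figure D2:**
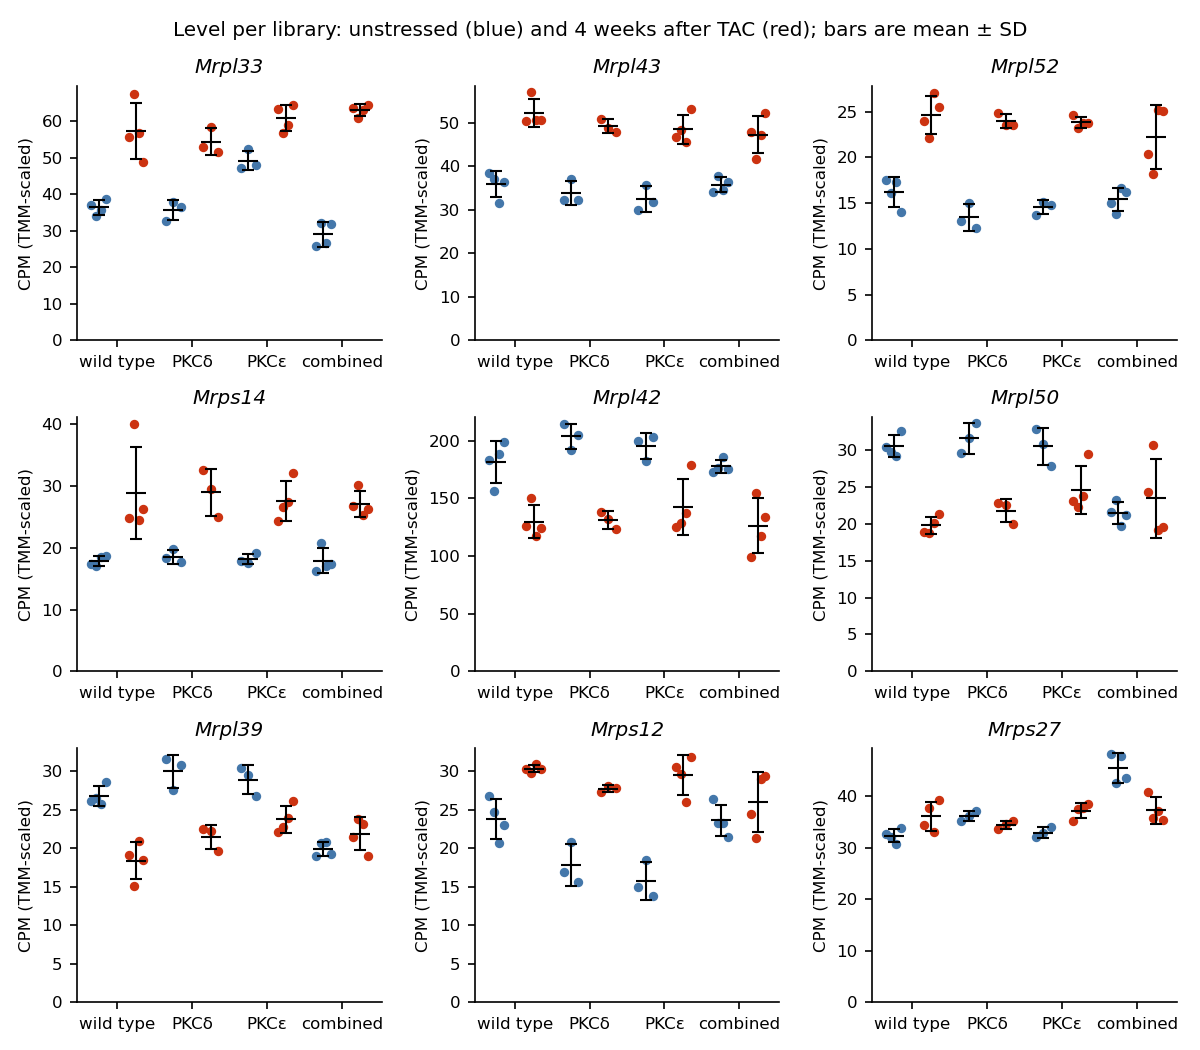
Level of 9 members in every library, in TMM-scaled CPM on axes that start at 0, for unstressed (blue) and TAC (red) libraries of each genotype, with mean ± SD of the group. Mrpl33, Mrpl43, Mrpl52 and Mrps14 are higher in red in each genotype and Mrpl42 lower, while Mrpl50 and Mrpl39 in the combined knockout are already low before TAC.

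Stretches upstream of 6 members are shown because these genes rose or fell in at least 3 genotypes and differ in the motifs they hold. Each is the 130 bases before the annotated start, from RefSeq on GRCm38.p6, 5′ to 3′ on the strand of the gene. Capitals mark matches to an ETS motif (CCGGAAG, the kind bound by GABPA), the palindromic NRF1 motif or a YY1 motif (AAGATGGCG), searched on both strands. The marked matches do not overlap one another. The first 3 genes were called higher in the 4 genotypes and the last 3 lower in 3 or 4. The 6 were picked with their motifs known and do not represent either direction. Of 15 members called higher in at least 3 genotypes and matched to a promoter, 7 held an ETS match. Past the start, outside the bases shown, Mrpl42 held a YY1 match and Mrpl52 a further ETS match.
Mrpl43 (chr19:45006443-45006572, minus strand): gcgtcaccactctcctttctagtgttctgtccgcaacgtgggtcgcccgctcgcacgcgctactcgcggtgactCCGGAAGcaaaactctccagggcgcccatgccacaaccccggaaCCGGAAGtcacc
Mrpl52 (chr14:54426779-54426908, plus strand): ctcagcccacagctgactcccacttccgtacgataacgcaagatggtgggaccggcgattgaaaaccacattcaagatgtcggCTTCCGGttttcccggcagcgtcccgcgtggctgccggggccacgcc
Mrpl53 (chr6:83108978-83109107, plus strand): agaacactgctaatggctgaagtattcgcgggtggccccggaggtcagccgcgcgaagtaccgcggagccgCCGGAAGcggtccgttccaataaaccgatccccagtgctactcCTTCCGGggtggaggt
Mrpl39 (chr16:84735245-84735374, minus strand): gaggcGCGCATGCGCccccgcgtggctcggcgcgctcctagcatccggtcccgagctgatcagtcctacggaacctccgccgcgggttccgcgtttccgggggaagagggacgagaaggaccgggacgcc
Mrpl42 (chr10:95501950-95502079, minus strand): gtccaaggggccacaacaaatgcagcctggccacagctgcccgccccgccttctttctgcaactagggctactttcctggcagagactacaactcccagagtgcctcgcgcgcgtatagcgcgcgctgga
Mrpl50 (chr4:49521084-49521213, minus strand): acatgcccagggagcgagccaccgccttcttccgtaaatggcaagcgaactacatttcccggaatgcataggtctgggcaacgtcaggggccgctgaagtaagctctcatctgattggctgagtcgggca

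Promoter windows of 300 bases (250 before the start and 50 after) were found for 67 of the 76 members, as 73 windows, since some genes have more than 1 start. The ETS motif was in 32.9% of these against 15.8% of 12943 windows of tested genes, the NRF1 motif in 16.4% against 9.14%, and the YY1 motif in 11.0% against 2.74%. The CCAAT box was in 41.1% against 37.0%, and the estrogen-related receptor motif TCAAGGTCA in 0 of 73 against 0.28%. By gene, 24 of 67 members held an ETS match. Among matched members it was in 7 of the 15 called higher in at least 3 genotypes and in 0 of the 4 called lower in at least 3. In the same order the YY1 motif was in 0 of 15 and 2 of 4, the NRF1 motif in 1 of 15 and 1 of 4, and the CCAAT box in 9 of 15 and 4 of 4. A match describes the letters of the window and is not a measured binding site.

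By class, 45 members have a bacterial counterpart, 27 do not, and 4 were left unclassified. After TAC the first class had 16 higher and 1 lower in wild type, 16 and 2 in PKCδ, 11 and 0 in PKCε, and 10 and 4 in the combined knockout. The second class had 7 and 5, 6 and 6, 6 and 5, and 7 and 4. Rises came from both classes, and the 4 members lower in at least 3 genotypes (Mrpl37, Mrpl39, Mrpl42 and Mrpl50) are all of the second. The set depended on the setting: after the GC correction it was Mrpl4, Mrpl39 and Mrpl42, of which Mrpl4 has a bacterial counterpart. It was Mrpl42 alone under total-count scaling and without PKCε unstressed replicate 1 or 2 or PKCε TAC replicate 1. No test was made between the classes. By name, 14 of 47 Mrpl and 11 of 29 Mrps genes were higher in wild type, and 5 and 1 were lower.

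In 26 members no TAC comparison was called (34.2% against 39.8% of all genes). They included Mrpl3, Mrpl44, Mrps22, Mrps5, Mrps30 and Mrps36. Mrpl44, whose human counterpart is mutated in infantile cardiomyopathy, had log2 fold changes of 0.02 ± 0.07, −0.03 ± 0.08, −0.12 ± 0.07 and −0.15 ± 0.08 in the 4 genotypes. Mrpl3 had 0.21 ± 0.16 as its largest, in PKCε, with standard errors of 0.15 to 0.19 that leave room for changes of that size. Among the most abundant members per kilobase Mrpl30 and Mrps21 lay between −0.11 and 0.06, and Mrpl12 was called higher in the PKCδ group (0.32 ± 0.09).

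Genes of the cytosolic ribosome, which makes all other proteins of the cell, were set beside the family. Of 77, 46 were higher and 4 lower after TAC in wild type, 36 and 2 in PKCδ, 32 and 3 in PKCε, and 44 and 2 in the combined knockout. Their median log2 fold changes were 0.28, 0.30, 0.17 and 0.32. Nuclear-encoded respiratory chain subunits had 11 higher and 18 lower of 76 in wild type, 16 and 11 in PKCδ, 14 and 19 in PKCε, and 22 and 10 in the combined knockout, with medians of −0.06, 0.07, −0.03 and 0.07. The family lay between these lists in its share of genes called higher in wild type, PKCδ and PKCε. Over all genes 17.8% were called higher and 18.0% lower in wild type, and 11.7% and 11.9% in PKCδ. In PKCε these shares were 14.5% and 14.3%, and in the combined knockout 16.3% and 15.8%. The differences between lists were not tested.

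**Figure D3:**
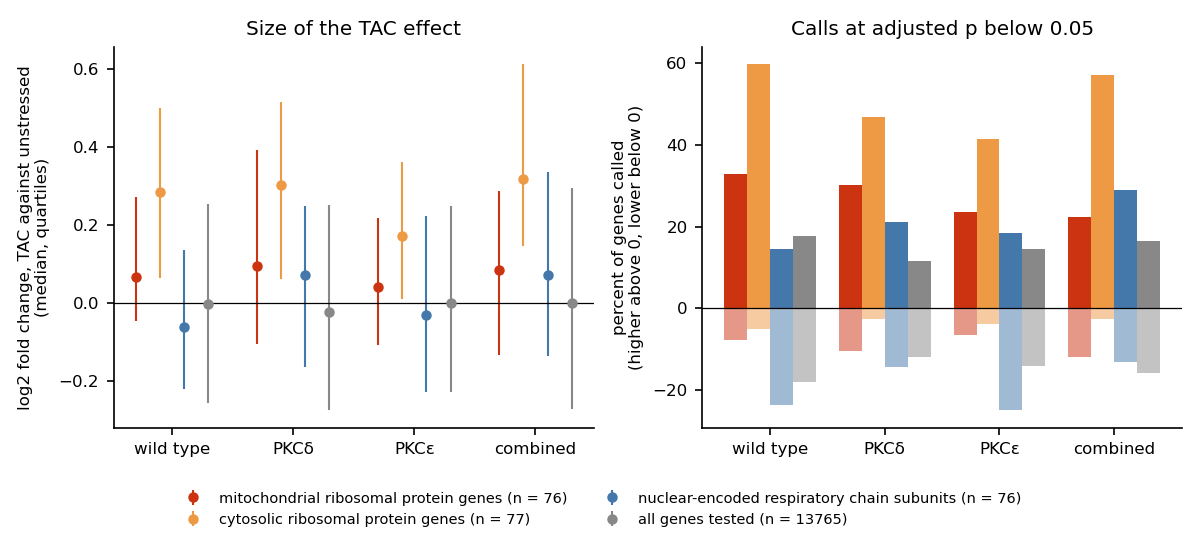
Left, median log2 fold change after TAC in each genotype with the lower and upper quartile as bars, for the members, the cytosolic ribosomal protein genes, the respiratory chain subunits and all genes tested. Right, percent of each list called higher (above 0) and lower (below 0, paler). The members' medians of 0.04 to 0.09 lie below those of the cytosolic ribosomal protein genes (0.17 to 0.32).

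Before TAC, the PKCδ group had 2 members above wild type and 4 below (background 2.64% and 2.66% of all genes, 5.3% in both directions). Mrps25 and Mrpl22 were higher and Mrps12, Mrps15, Mrps26 and Mrpl11 lower. This count is fragile: it fell to 0 without wild-type unstressed replicate 4, and to 1 without wild-type replicate 1 or 2 or PKCδ replicate 1 or 3. It was 2 without wild-type replicate 3 and 3 without PKCδ unstressed replicate 2, PKCδ TAC replicate 2 or wild-type TAC replicate 4. Total-count scaling gave 7 higher and 0 lower, beside 5.99% of all genes called in either direction. The PKCε group had 1 higher (Mrpl33) and 2 lower (Mrps12 and Mrpl53; background 1.55% and 1.42%, 2.98% in both directions), of which 1 was left without PKCε unstressed replicate 2. Skeletal muscle markers summed to 22.6 to 35.1 CPM in this group and to 5.21 to 7.22 in unstressed wild type, and their part in these calls was not tested.

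Mrps12, the counterpart of the bacterial decoding-centre protein S12, was lower in both single ablations. It stood at 26.8, 24.7, 20.7 and 23.0 CPM in unstressed wild type, at 16.9, 20.8 and 15.7 in PKCδ and at 14.9, 18.4 and 13.8 in PKCε. The 3 PKCε libraries lay below each wild-type library (7.72% of all genes were lower and 7.74% higher without overlap in that comparison, and 9.55% lower and 10.5% higher in PKCδ), and the PKCδ group met the wild-type range at its upper end. In the combined knockout it stood at 26.4, 23.3, 23.3 and 21.4 CPM, within the wild-type range. The log2 difference from wild type was −0.42 ± 0.12 in PKCδ (adjusted p = 0.0324), −0.60 ± 0.12 in PKCε (adjusted p = 0.00445) and −0.02 ± 0.11 in the combined knockout. After TAC the 4 groups lay at 30.3, 29.8, 30.9 and 30.3 CPM, at 27.3, 28.1 and 27.8, at 30.5, 29.7, 25.9 and 31.9, and at 24.5, 21.3, 28.9 and 29.4. The PKCδ call was lost under total-count scaling, under a correction for GC content, with the replicate block, and without wild-type unstressed replicate 1, 2 or 4 or PKCδ unstressed replicate 1 or 3 (−0.44 to −0.32 over these).

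The unstressed combined knockout differed from wild type in 10 members higher and 11 lower (background 15.2% and 13.8%), a share close to that of all genes, with a median of −0.02. Higher were Mrps23 (0.53), Mrps27 (0.49), Mrpl34 (0.37), Mrps18b (0.36), Mrpl14 (0.32), Mrps25, Mrps2, Mrps18a, Mrpl54 and Mrpl2 (0.20). Lower were Mrpl50 (−0.51), Mrpl11, Mrpl13, Mrpl39, Mrpl41, Mrps36 (−0.41), Mrps33, Mrpl33, Mrpl24, Mrpl51 and Mrpl37 (−0.23). Mrps27, a small-subunit protein with no bacterial counterpart, stood at 32.8, 32.2, 30.7 and 33.8 CPM in wild type and at 48.3, 42.6, 47.9 and 43.6 in the combined knockout. Those groups did not overlap (log2 difference 0.49 ± 0.06, adjusted p = 3.56e-06). In that comparison 15.7% of all genes were higher, and 13.8% lower, without overlap. Mrps23 went from 78.6, 78.3, 70.3 and 76.3 CPM to 127, 103, 103 and 106, again with no overlap. Of the 7 smooth muscle and pericyte markers 5 were lower in this comparison, 4 of 8 endothelial markers were lower and 3 of 8 macrophage markers were higher. The endothelial sum was 1008 to 1135 CPM against 1207 to 1239 in wild type, and the atrial myocyte sum 54.6 to 97.4 against 135.4 to 153.9. The part of these in the comparison was not tested.

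After TAC no member was called between any ablation and wild type (edgeR, 0 of 76 in each). Over all genes 0.0% were called in PKCδ, 0.0509% in PKCε (0.0363% higher, 0.0145% lower) and 0.886% in the combined knockout (0.509% higher, 0.378% lower). Unadjusted p-values under 0.05 were found for 1 member in PKCδ (1 higher), 12 in PKCε (9 higher, 3 lower) and 11 in the combined knockout (2 higher, 9 lower), beside 3.5%, 12.2% and 16.5% of all genes. DESeq2 called 0, 0 and 2 (1 higher and 1 lower). Fitted log2 differences ran from −0.14 to 0.27 in PKCδ, from −0.23 to 0.49 in PKCε and from −0.29 to 0.43 in the combined knockout. Without both doubted libraries 1 member was called in PKCε and 1 in the combined knockout (0.116% and 2.24% of all genes), and with no sex term as well 1 and 2. The combined count was also 1 without combined TAC replicate 2 or 4 alone. With no sex term it was 3, beside 6.76% of all genes.

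Whether TAC moved a member differently in an ablation than in wild type was tested as an interaction. No member was called for PKCδ (0.908% of all genes were, 0.312% higher and 0.596% lower) or for PKCε (0.0291%, 0.00726% higher and 0.0218% lower). Unadjusted p-values under 0.05 were found for 5 higher and 4 lower in PKCδ and for 6 and 3 in PKCε (12.2% and 8.23% of all genes), and DESeq2 called 0 in each. For the combined knockout 15 members were called, 7 with a more positive and 8 with a more negative TAC effect than in wild type, or 15 of 76 beside 19.1% of all genes (9.52% more positive, 9.53% more negative). Total-count scaling gave 4 and 10, beside 18.7% of all genes called. Without both doubted libraries 7 and 7 were called, beside 16.0% of all genes. The count was 8 without wild-type TAC replicate 4 and 9 in a fit of the 4 groups alone. The share of all genes was not taken for these fits, so neither count is read as particular to the members. Among libraries labelled male only replicate 3 is left of combined TAC, and that count is not given.

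The 15 interactions combine 4 groups, and the unstressed combined libraries enter both the genotype difference and the TAC effect of that genotype, so these values are given side by side and not as separate evidence. Mrpl39 had an interaction of 0.71 ± 0.13 (adjusted p = 0.000596): it was −0.43 from wild type before TAC, changed by 0.19 with TAC in the combined knockout and fell by 0.52 in wild type. Mrpl50 had 0.67 ± 0.16, with −0.51 before TAC, 0.01 with TAC, and −0.66 with TAC in wild type. Mrpl33 had 0.51 ± 0.12, from a lower start (−0.33) and a larger rise (1.18 against 0.67). Mrpl13, the counterpart of bacterial L13, had 0.45 ± 0.12: it stood at 21.4, 24.8, 20.4 and 20.04 CPM in the unstressed combined knockout and at 26.5, 28.5, 32.3 and 31.2 in wild type, and at 33.7, 37.0, 31.9 and 31.5 against 30.4, 34.5, 33.7 and 33.9 after TAC. In these 4 members the combined knockout lay below wild type before TAC, and its TAC libraries met the wild-type range. Mrpl11, Mrpl41 and Mrpl51 were the other 3 with a more positive effect.

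Mrps27, Mrpl34, Mrps2 and Mrpl14 lay above wild type before TAC in the combined knockout, with ranges that overlapped wild type after it. Mrps27 (interaction −0.48 ± 0.09, adjusted p = 0.000915) went from 48.3, 42.6, 47.9 and 43.6 CPM to 40.9, 35.7, 37.1 and 35.4 in the combined knockout, and in wild type from 32.8, 32.2, 30.7 and 33.8 to 34.5, 37.8, 33.1 and 39.3. Mrpl34, the counterpart of bacterial L34, was the 1 member called in opposite directions by TAC (1.32% of members against 1.84% of all genes). It was called higher in wild type (0.27 ± 0.09) and lower in the combined knockout (−0.27 ± 0.10), with an interaction of −0.54 ± 0.13. It stood at 40.1, 33.7, 38.9 and 37.2 CPM in unstressed wild type and at 50.1, 52.1, 44.3 and 47.6 in the unstressed combined knockout. Mrpl2, the counterpart of a bacterial protein next to the peptidyl transferase centre, had −0.47 ± 0.10, and its order crossed over. It stood at 75.6, 73.7, 72.6 and 72.2 CPM in unstressed wild type and at 91.8, 79.2, 84.3 and 83.4 in the combined knockout, and after TAC at 86.1, 104.3, 95.9 and 89.8 in wild type and at 71.1, 71.5, 80.9 and 80.4 in the combined knockout. The other 3 with a more negative effect were Mrpl38, Mrpl21 and Mrpl4. Single libraries ended calls here: Mrpl33 (0.38), Mrpl38 (−0.34) and Mrpl51 (0.30) were lost without wild-type TAC replicate 4, and Mrpl14 without wild-type unstressed replicate 4 (−0.33) or combined TAC replicate 3 (−0.32). Mrpl4, Mrpl11, Mrpl21 and Mrpl41, with adjusted p-values of 0.0284 to 0.048, were each lost without any of several libraries, wild-type TAC replicate 4 among them.

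GC content moved with these differences. The members' transcripts held 39.6% to 60.6% GC (median 50.9%). Across the 76 members Spearman's rho between GC and the log2 fold change was 0.41 for TAC in wild type, 0.45 in PKCδ, 0.28 in PKCε and −0.15 in the combined knockout. Across 12951 tested genes with a transcript it was 0.36, 0.39, 0.27 and −0.14. For the unstressed combined knockout against wild type it was 0.36 across members and 0.35 across genes, and for the interaction −0.55 and −0.47. Genes of 1 library share its composition and are not independent, so these values carry no test. Of the members with the most positive interactions, Mrpl39 held 48.2% GC and Mrpl50 42.3%, and of those with negative ones Mrpl34 held 58.3%, Mrps2 49.3%, Mrps27 52.2% and Mrpl2 57.5%, so Mrps2 lay below the median.

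After a correction of each library for the GC content of transcripts, an alternative added after seeing the data, TAC called 22 members higher and 8 lower in wild type, 19 and 5 in PKCδ, 18 and 6 in PKCε and 18 and 8 in the combined knockout. The share of all genes called in either direction was then 32.7%, 18.2%, 27.4% and 33.4%. Of the 10 members higher in each genotype 9 remained so, Mrpl54 being the exception and Mrps16 joining them, and Mrpl42 remained lower in each. Of the 15 interactions 5 kept their call, those of Mrpl13, Mrpl39, Mrpl41, Mrps2 and Mrps27, while Mrpl33, Mrpl50, Mrpl2 and Mrpl34 were among the 10 lost. Over all genes the share called for that interaction went from 19.1% to 11.6%. Of the 21 members that differed in the unstressed combined knockout 13 kept their call, and of the 6 in PKCδ 2 did.

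**Figure D4:**
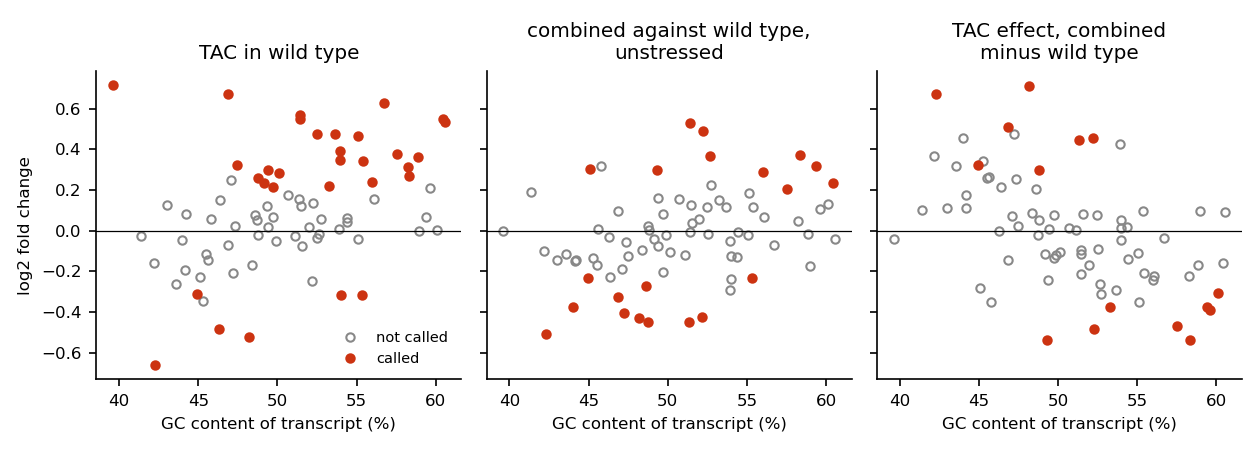
Log2 fold change of the 76 members against the GC content of their transcript, for TAC in wild type (left), the unstressed combined knockout against wild type (middle) and the difference of the combined TAC effect from that of wild type (right). Filled red points were called and open points were not. Spearman's rho across members is 0.41, 0.36 and −0.55 in that order, close to 0.36, 0.35 and −0.47 across all genes with a transcript.

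Length was related more weakly. Spearman's rho between transcript length and the TAC effect was −0.30 across members in wild type and −0.18 across genes, and −0.09 and −0.11 in the combined knockout. Of the 38 members with transcripts shorter than 1221 bases 17 were higher and 2 lower after TAC in wild type, against 8 and 4 of the 38 longer ones. Among all genes as short, 27.3% were called higher and 10.5% lower.

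Other genes of mitochondrial translation were taken from lists of mitochondrial ribosome genes with other names, translation factors, assembly factors, aminoacyl-tRNA synthetases, genes of mitochondrial DNA expression, and nuclear regulators. For all list counts after TAC, the shares of all genes were 17.8% higher and 18.0% lower in wild type, and 11.7% and 11.9% in PKCδ. They were 14.5% and 14.3% in PKCε, and 16.3% and 15.8% in the combined knockout. Of 8 mitochondrial ribosome genes with other names 2 were higher and 2 lower after TAC in wild type, 5 and 1 in PKCδ, 2 and 2 in PKCε, and 3 and 3 in the combined knockout. This list also holds Oxa1l, which is not a ribosomal protein. Mrp63, since renamed Mrpl57 and so outside the naming rule, had the largest rise of this list, by 1.12, 1.57, 1.29 and 1.09 on the log2 scale in wild type, PKCδ, PKCε and combined. Its level was 8.70 ± 1.35 CPM (SD, n = 4) in unstressed wild type and 18.3 ± 2.88 (n = 4) after TAC. Oxa1l, the inner-membrane insertase to which the ribosome docks, was lower in wild type, PKCε and combined (−0.17, −0.30 and −0.25).

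Of 15 translation factors, 2 were higher and 2 lower in wild type, 2 and 0 in PKCδ, 1 and 2 in PKCε, and 2 and 3 in the combined knockout. Tsfm, the exchange factor of the elongation factor EF-Tu, rose in wild type, PKCδ and PKCε (0.41, 0.40 and 0.33), and Tufm, EF-Tu itself, fell in the combined knockout (−0.40). Of 26 assembly factors, 3 were higher and 4 lower in wild type, 1 and 3 in PKCδ, 1 and 4 in PKCε and 0 and 4 in the combined knockout. Mterfd2, the older name of Mterf4, which with an rRNA methyltransferase acts in large-subunit assembly, fell in each genotype (−0.35, −0.92, −0.69 and −0.84). Of 22 aminoacyl-tRNA synthetases and related genes 0 were higher and 5 lower in wild type, 2 and 4 in PKCδ, 1 and 3 in PKCε, and 2 and 8 in the combined knockout. Iars2, which charges the mitochondrial isoleucine tRNA, fell in wild type (−0.40), PKCδ (−0.31) and PKCε (−0.30).

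Of 21 genes of mitochondrial DNA expression 1 was higher and 6 lower in wild type, 3 and 3 in PKCδ, 1 and 3 in PKCε, and 0 and 4 in the combined knockout. Polrmt, the mitochondrial RNA polymerase, rose in PKCδ and PKCε (0.45 and 0.33) and fell in the combined knockout (−0.32). Of 14 nuclear regulators 0 were higher and 6 lower in wild type, and 2 and 5 in each of the other 3 genotypes. Ppargc1a, a coactivator of mitochondrial biogenesis, fell in wild type, PKCδ and PKCε (−0.80 ± 0.13, −0.60 ± 0.17 and −0.41 ± 0.14) and stood at −0.10 ± 0.16 in the combined knockout, where it was already lower before TAC (−0.59 ± 0.13). Gabpa, the DNA-binding subunit of the ETS factor whose motif is marked above, fell in wild type, PKCδ and PKCε (−0.46, −0.44 and −0.41). Nrf1 was between −0.04 and 0.10 in the 4 TAC comparisons and was not called.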

How the data were processed

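The deposited values are raw read counts per gene symbol, 1 file per library. Per the submitters' processing notes the authors used mm10, Bowtie2, TopHat2 2.0.10 and HTSeq, and DESeq and edgeR appear there too, with no role stated. The annotation behind the counts is not given in the sources used here. Libraries are polyadenylated, single-end and without strand, per the labels' protocols, so reads of overlapping genes are mixed or set aside. The 5 rows of reads outside genes were left out of library sizes. The deposited count table of the series agreed exactly for its 23391 shared names.

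Counts were fitted with edgeR 4.0.16 (limma 3.58.1, R 4.3.3): TMM, a filter on low counts by group (13765 genes), robust quasi-likelihood, group means and the sex label, 29 libraries, 20 residual degrees of freedom. Benjamini-Hochberg adjustment ran over all genes in each of 13 comparisons, at 0.05. The SE is the fold change over the root of F. The fit was checked on simulated data. Depths of 10523709 to 17314739 counts leave members of few counts, such as Mrpl1, the least precise. Members and lists were chosen with earlier results of these data known, and 1 class label (Mrpl47) was set after values were seen. Members named are up to 6 called per direction in a comparison by adjusted p, interaction calls, members called alike in at least 3 TAC comparisons, a set with a known role or disease link, extremes of level and those nearest the threshold. From the pathway lists up to 3 called genes per direction in a comparison could be named. From the list of mitochondrial ribosome genes with other names Mrp63 and Oxa1l were chosen after their values were seen.

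Replicate numbers are not stated to pair the libraries. Alternatives were DESeq2 1.42.0, RLE and total-count scaling, no filter, no sex term, libraries labelled male, the replicate block, the compared groups alone, and each library or both doubted ones left out. Overlaps and transcripts come from GENCODE vM21, positions and promoters from RefSeq on GRCm38.p6. Figures used matplotlib 3.10.9. Of the pathway lists, 1 gene is not reported here by name.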

Additional observations from a re-analysis of the deposited data

Results flagged for a closer look

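In groups of 4 libraries, a library was picked out when its gap to the nearest other exceeded Dixon's 95% critical value, which chance reaches in about 1 of 20 groups. Of 265 groups looked at, 18 were picked out. Wild-type TAC replicate 2 was highest of its group in 4 of them: Mrpl43 at 57.03 CPM (others 50.4 to 50.7), Mrpl55 at 48.2 (34.5 to 36.5), Mrps14 at 40.0 (24.5 to 26.2) and Mrps36 at 74.8 (49.5 to 52.9). In unstressed wild type, replicate 2 was lowest for Mrpl1 (4.43 CPM, others 5.81 to 6.02) and Mrpl41 (25.2, others 32.3 to 32.9), and replicate 3 for Mrpl20 (15.3, others 17.8 to 18.1).

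In the unstressed combined knockout, replicate 1 was highest for Mrpl54 (46.9 CPM, others 37.4 to 38.3), Mrps18b (44.9, others 37.9 to 39.1) and Mrps23 (126.7, others 102.9 to 105.6). Replicate 2 was highest for Mrps34 (34.1, others 27.8 to 28.2) and replicate 4 lowest for Mrps18a (54.9, others 65.5 to 67.0). In combined TAC, replicate 1 was lowest for Mrpl38 (43.9, others 62.3 to 63.8) and Mrps2 (26.1, others 36.4 to 38.04), and replicate 2, the library that went against its label, was highest for Mrpl41 (32.4, others 24.4 to 25.1). In PKCε TAC, replicate 1 was highest for Mrpl54 (54.0, others 48.9 to 49.2) and replicate 4 for Mrps15 (28.4, others 22.5 to 23.2). Replicate 4 also held the highest sum of all members, 3632 CPM against 3233 to 3297 in the others.

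The TAC effect of 15 members differed between the combined knockout and wild type by the interaction test. It was more positive, on the log2 scale, for Mrpl39 (0.71), Mrpl50 (0.67), Mrpl33 (0.51), Mrpl41 (0.45), Mrpl13 (0.45), Mrpl51 (0.32) and Mrpl11 (0.30). It was more negative for Mrpl34 (−0.54), Mrps2 (−0.54), Mrps27 (−0.48), Mrpl2 (−0.47), Mrpl38 (−0.39), Mrpl14 (−0.38), Mrpl21 (−0.37) and Mrpl4 (−0.31).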

How the results depend on the processing

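No call of a named member reversed its direction under an alternative run. Under total-count scaling the members' median turned from −0.01 to 0.05 for PKCδ against wild type, unstressed, and from 0.02 to −0.06 for the PKCδ interaction. Of 122 results for named members, 121 kept their call under RLE normalization and under DESeq2, 122 with no sex term, 116 with the replicate block, 114 with no filter, 105 under total-count scaling, 98 after the GC correction, and 94 each with libraries labelled male and with the compared groups alone. Counts of called members moved by over 1.5 times in these cases. For TAC in the combined knockout (26) the libraries labelled male gave 14 and the groups alone 5. For PKCδ against wild type, unstressed (6), no filter gave 3, the replicate block 3 and the GC correction 2. For PKCε against wild type after TAC (0), leaving out both doubted libraries gave 1, and 1 with no sex term. For the combined knockout against wild type after TAC (0), no sex term gave 3 (6.76% of all genes) and DESeq2 2. Leaving out both libraries gave 1 (2.24% of all genes), or 2 with no sex term. For the PKCδ interaction (0) the groups alone gave 1. For the combined interaction (15) the GC correction gave 9, beside 11.6% of all genes, and the groups alone 9. Its count also moved among male-labelled libraries, where combined TAC is replicate 3 alone, so that count is not given. The cause was not tested. Leaving out each library in turn gave between 25 and 34 members for the wild-type TAC comparison, between 22 and 32 for PKCδ, between 17 and 26 for PKCε and between 19 and 30 for the combined knockout. For unstressed hearts it gave 0 to 7 for PKCδ, 1 to 4 for PKCε and 16 to 24 for the combined knockout. After TAC it gave 0 for PKCδ, 0 for PKCε and 0 to 1 for the combined knockout, and for the interactions 0, 0 and 8 to 17. Libraries of the same replicate number correlated at −0.13 to 0.18 in their deviations from the group means, which does not settle whether they are paired. The replicate block changed no other count by over 1.5 times.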

Other observations

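In unstressed combined-knockout hearts 24 of 76 nuclear-encoded respiratory chain subunits were lower than in wild type and 1 was higher, with a median log2 difference of −0.09. Over all genes 13.8% were lower and 15.2% higher. The mitochondrial ribosomal protein genes were split 10 higher and 11 lower, close to those shares. Cytosolic ribosomal protein genes were 7 higher and 12 lower of 77 in the same comparison. Slirp, an RNA-binding protein that with Lrpprc keeps mitochondrial messages stable, was lower there (−1.31) and rose with TAC in that genotype (1.63), and the unstressed combined libraries enter both values.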
